A study of Drosophila melanogaster with 9 samples.

Results

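The digestive enzymes of the Drosophila melanogaster gut described here are 44 genes of a deposited table of 10221 genes. They were chosen by gene symbol: every Jonah gene (Jon), every trypsin gene whose symbol ends in Try, the proteases CG11912, CG18179 and CG18180, the alpha-mannosidases (LMan), the amylases (Amy) and the maltases (Mal-A and Mal-B). That gives 26 proteases (14 Jonah genes, 9 trypsin genes and 3 CG-numbered genes) and 18 carbohydrases (6 LMan, 2 Amy, 8 Mal-A and 2 Mal-B genes). The rule uses symbols and no measured value, but it was written with earlier results of these data known. RNA came from whole embryos of stage 16 or later, with more than 200 embryos in each sample, and was sequenced as 3 biological replicates for each of 3 genotypes. In Hexa embryos Insc-Gal4, a driver active in neural stem cells (neuroblasts), drove UAS transgenes for 6 transcription factors, namely hb, ase, Kr, wor, nub and SoxN. In Quad embryos the same driver drove 4 of them, ase, Kr, wor and SoxN. Control embryos carried 1 copy of Insc-Gal4 over OregonR chromosomes with no UAS transgene. By the sample titles all 9 libraries carry the driver, although some column headers, described below, name another driver for controls 2 and 3. There is no group with the transgenes and no driver. Only the controls are described as carrying the driver over OregonR, so strain background and transgenes cannot be told apart in the contrasts against control. The labels number the Hexa, Quad and control libraries as experiments 3, 2 and 1, whereas the design text of the series pairs Hexa and Quad each with a control of its own. A total of 3 control libraries are analysed here, and neither source says which of them belong with Hexa or with Quad, so genotype and experiment cannot be told apart.

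The larval midgut is the digestive and absorbing part of the fly gut. It forms from the embryonic endoderm and begins to make secreted enzymes towards the end of embryogenesis, before the first meal. Jonah genes and trypsins encode serine endopeptidases that cut dietary proteins, trypsins after lysine or arginine. Amylases cut starch into short sugars, maltases split maltose and related sugars into glucose, and alpha-mannosidases of the LMan family, named after the lysosomal enzyme, remove mannose from glycans. Whole embryos hold many other tissues, so a lower level can mean fewer gut cells or less RNA per gut cell, and these cannot be told apart. The label midgut was checked against marker genes of that tissue. Of 5 midgut epithelium markers 4 had a row (Ssk, mesh, Myo31DF and Myo61F), and their summed level was between 577 and 745 RPKM in all 9 libraries, where RPKM is reads scaled to transcript length and library depth. Of 9 midgut transcription factors 6 had a row, GATAe and srp among them. The data thus hold midgut RNA in every library, but whole embryos cannot show which cells made a given enzyme RNA.

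The libraries held between 8555639 and 11687961 counted reads, of which 0.567% to 1.23% fell on the 44 genes. A gene was tested if it reached 0.5 RPKM in 3 libraries, which 6190 genes did, 43 of the 44 enzymes among them. None of the 43 passed through 1 group alone. Mal-A7 did not pass, with 0.183 to 0.266 RPKM in Hexa, 0.0151 to 0.121 RPKM in Quad and 0.0475 to 0.0947 RPKM in control libraries. A gene is called changed below when its adjusted p in limma, over all 6190 genes, was under 0.05. Differences are given on the log2(RPKM + 0.1) scale, where changes of low genes come out too small, with the standard error (SE) of the fit. Both contrasts against control use the same 3 control libraries, so they are not independent of each other. Control 2 stood apart from the other controls: it was the highest of the 3 in 37 of the 43 tested enzymes (86.0%), against 49.8% of all tested genes. Its level was a median of 2.34 times the mean of controls 1 and 3 for proteases, 1.198 times for carbohydrases and 1.06 times for all tested genes. The headers of the linear RPKM columns, not used here, name another driver for controls 2 and 3. Inducible heat shock genes also differed: the mean of 17 of them lay 0.83, 2.29 and 2.62 log2 units above the control mean in Hexa 1 to 3, against 0.72, -0.79 and -0.23 in Quad 1 to 3 and 0.23, -0.64 and 0.41 in controls 1 to 3.

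**Figure D1:**
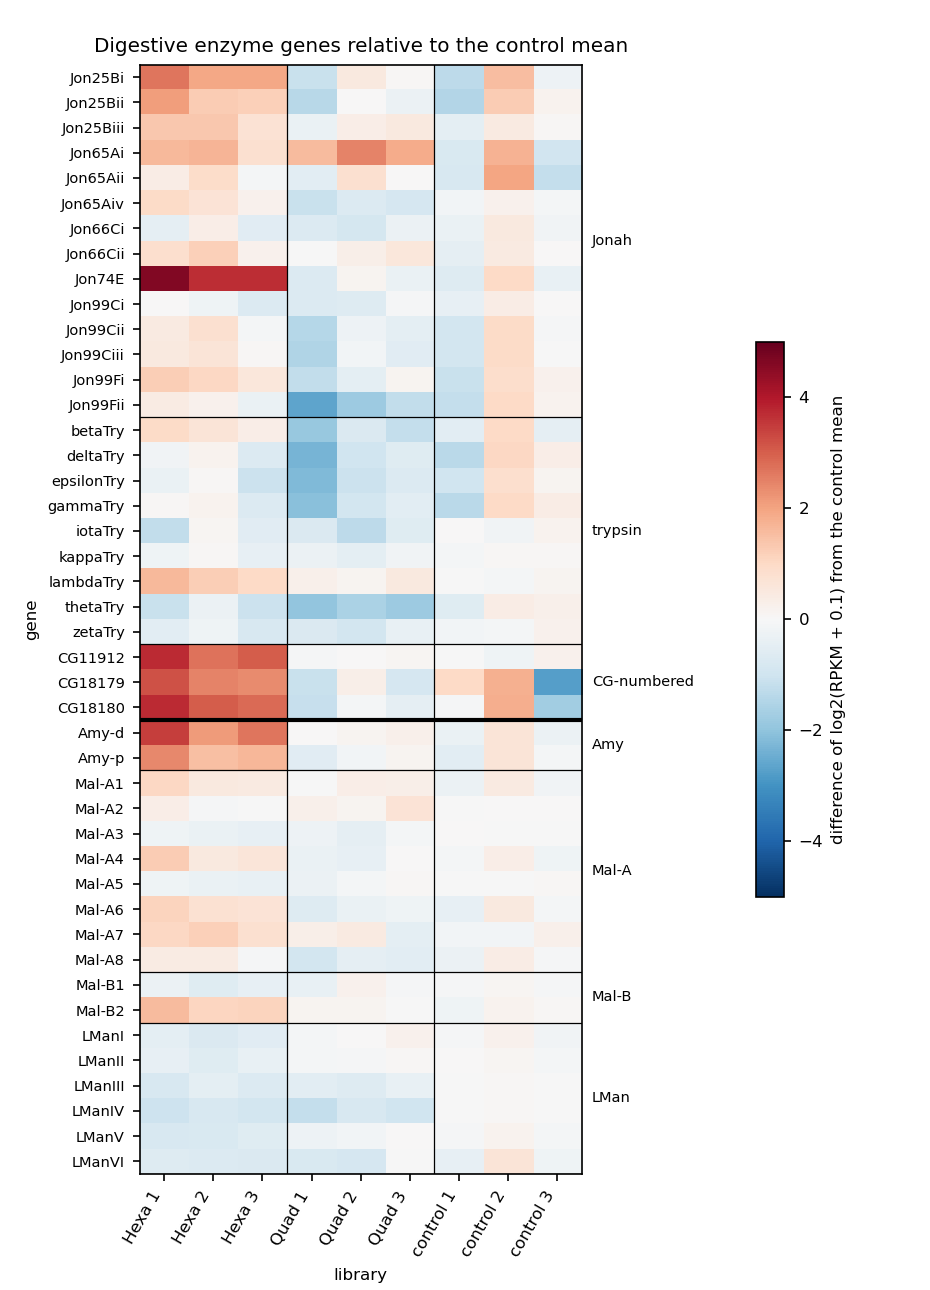
Level of each of the 44 genes (rows, grouped by family) in each of the 9 libraries (columns), as the difference of log2(RPKM + 0.1) from the mean of the 3 controls. Red is higher and blue is lower than that mean, and the thick line divides proteases from carbohydrases. Jon74E, the CG-numbered genes and the amylases are red in the 3 Hexa libraries, the LMan genes are blue there, and control 2 is red for most Jonah genes.

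Hexa embryos carried far more RNA of a few digestive enzymes than controls, and less of the mannosidases. Of the 43 tested enzymes 18 were called (41.9%), 13 higher (30.2%) and 5 lower (11.6%), beside 32.3% of all tested genes, with 19.1% higher and 13.1% lower. The share lower is near the background. Called and at least 2-fold higher were 9 enzymes (20.9%) beside 7.88% of all tested genes, and no enzyme was called and at least 2-fold lower beside 1.76%. Ranges did not overlap, with Hexa higher, for 14 enzymes beside 28.0% of all tested genes, and with Hexa lower for 10 beside 23.7%. Among the 26 proteases 7 rose and none fell, with a median difference of 0.51. Among the 17 tested carbohydrases 6 rose and 5 fell, with a median of -0.29. The median over all tested genes was 0.03.

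Of the 14 Jonah genes, 4 rose in Hexa embryos (28.6%), beside 19.1% of all tested genes. Jon74E, which cuts proteins as a secreted serine endopeptidase, had 23.4, 12.2 and 12.3 RPKM in the Hexa libraries, 0.502, 0.956 and 0.663 RPKM in the Quad libraries and 0.518, 1.81 and 0.648 RPKM in the controls. Every Hexa library was thus higher than any Quad or control library. The difference from control was 3.996 (SE 0.44, adjusted p = 4.71e-04), or 16.1-fold between the mean levels, and was the 38th highest of all 6190 genes. Its count column did not follow its RPKM by 1 fixed length, and edgeR on those counts also called it (difference 4.38, adjusted p = 0.00172). Jon25Biii, one of the most abundant of the 44 genes, had 240, 243 and 158 RPKM in Hexa, 74.5, 119 and 134 RPKM in Quad and 67.2, 128 and 98.5 RPKM in control libraries. Its Hexa and control ranges did not overlap, and the difference was 1.14 (SE 0.29, adjusted p = 0.0218). Its neighbour Jon25Bi had 44.3, 26.8 and 26.3 RPKM in Hexa, 3.17, 9.59 and 7.15 RPKM in Quad and 2.75, 20.3 and 5.73 RPKM in control libraries. Control 2 was the highest control and still lay under the lowest Hexa library, and the difference was 2.18 (SE 0.68, adjusted p = 0.0413). Jon65Aiv, the most abundant of the 44 genes in Hexa and in control embryos, had 279, 228 and 166 RPKM in Hexa, 65.8, 88.2 and 79.8 RPKM in Quad and 132, 165 and 136 RPKM in control libraries. The lowest Hexa library stood just over control 2, and the difference was 0.61 (SE 0.20, adjusted p = 0.0421). The other 10 Jonah genes were not called, with differences from -0.29 for Jon99Ci to 1.52 for Jon25Bii. Jon25Bii, the gene between Jon25Bi and Jon25Biii, had 32.0, 18.0 and 16.9 RPKM in Hexa, 2.74, 7.52 and 5.99 RPKM in Quad and 2.65, 18.0 and 8.32 RPKM in control libraries (adjusted p = 0.0950). Hexa 2 and 3 lay beside control 2 there.

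Of the 9 trypsins 1 was called in Hexa against control (11.1%), beside 32.3% of all tested genes. The trypsin lambdaTry had 138, 106 and 91.7 RPKM in Hexa, 54.1, 49.6 and 63.4 RPKM in Quad and 44.4, 42.4 and 49.5 RPKM in control libraries. All 3 Hexa libraries lay above all others, with a difference of 1.28 (SE 0.16, adjusted p = 8.2e-04). The other 8 trypsins were not called and 7 of them had a negative difference, from -0.14 for gammaTry to -0.82 for thetaTry. The SE of these 8 ran from 0.14 for kappaTry to 0.63 for deltaTry, so a missing call does not show a small change. Without control 2, gammaTry and deltaTry had differences of 0.35 and 0.29 instead. The second most abundant trypsin, zetaTry, had 41.7, 51.6 and 33.6 RPKM in Hexa, 36.0, 31.0 and 46.0 RPKM in Quad and 54.5, 55.7 and 68.9 RPKM in control libraries, and its difference from control was -0.51 (adjusted p = 0.0658).

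The 3 CG-numbered genes encode predicted serine proteases. CG11912 had 87.1, 42.6 and 52.9 RPKM in Hexa libraries, 6.25, 6.60 and 6.87 RPKM in Quad libraries and 6.45, 5.58 and 7.56 RPKM in controls. Quad and control libraries lay within a narrow band and every Hexa library stood far over it, by 3.15 (SE 0.23, adjusted p = 4.19e-05), or 9.33-fold between means. CG18180 had 61.0, 37.7 and 32.9 RPKM in Hexa, 1.98, 4.19 and 3.33 RPKM in Quad and 4.35, 16.2 and 1.28 RPKM in control libraries. Its controls spread widely, yet the highest of them, control 2, lay under all Hexa libraries, and the difference was 3.19 (SE 0.76, adjusted p = 0.0183). Its neighbour CG18179 had 7.69, 4.60 and 4.27 RPKM in Hexa, 0.291, 0.927 and 0.377 RPKM in Quad and 1.59, 2.78 and 0.0257 RPKM in control libraries. The ranges did not overlap here either, but the spread of the controls left the difference of 2.68 uncalled (SE 1.02, adjusted p = 0.0710). Among the 44 genes ranked by mean level, CG11912 stood 6th in Hexa, 22nd in Quad and 28th in control embryos, CG18180 stood 7th, 29th and 26th, and Jon74E stood 23rd, 41st and 41st in the same order of groups.

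Both amylase genes rose in Hexa embryos. Amy-d had 30.5, 12.1 and 17.9 RPKM in Hexa, 2.72, 2.98 and 3.30 RPKM in Quad and 2.13, 4.28 and 2.19 RPKM in control libraries, a difference from control of 2.74 (SE 0.35, adjusted p = 0.001003). Amy-p, its near-identical neighbour, had 37.3, 20.1 and 22.8 RPKM in Hexa, 4.72, 6.45 and 7.79 RPKM in Quad and 4.90, 10.97 and 6.53 RPKM in control libraries, a difference of 1.85 (SE 0.33, adjusted p = 0.00507). For both genes the 3 Hexa libraries lay above all others, and Hexa 1 was the highest. How reads of such copies were shared out could not be learned from the labels or the table, so the split between Amy-d and Amy-p is uncertain, as it is within the betaTry, gammaTry and deltaTry trypsins and the Jon25B, Jon99C and Jon99F genes. Counts matched the RPKM for Amy-d and not for Amy-p. The count column of Amy-p holds only a small part of its reads, 2 to 24 per library. On those counts edgeR gave a difference of 1.49 (adjusted p = 0.137), a test too thin to say much about the RPKM difference.

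Maltases split into members that rose and members that were not called. Mal-B2 had 5.09, 3.55 and 3.57 RPKM in Hexa, 1.802, 1.78 and 1.59 RPKM in Quad and 1.39, 1.81 and 1.66 RPKM in control libraries, with no overlap and a difference of 1.26 (SE 0.18, adjusted p = 0.00157). Its count column also holds only a small part of its reads, 4 to 34 per library. On those few counts edgeR gave an adjusted p of 0.0873, which says little about the RPKM difference. Of the 7 tested Mal-A genes 3 rose (42.9%), beside 19.1% of all tested genes. Mal-A6 rose by 0.85 (adjusted p = 0.0248), Mal-A4 by 0.78 (adjusted p = 0.0331) and Mal-A1 by 0.67 (adjusted p = 0.0466). Mal-A6 had 13.9, 10.8 and 10.3 RPKM in Hexa, 3.998, 5.01 and 5.48 RPKM in Quad and 4.82, 9.01 and 5.97 RPKM in control libraries. Mal-A4 had 30.7, 17.7 and 19.2 RPKM in Hexa, 9.95, 9.60 and 13.1 RPKM in Quad and 11.7, 15.9 and 11.02 RPKM in control libraries. Mal-A1 had 49.8, 34.3 and 33.2 RPKM in Hexa, 24.1, 30.8 and 29.7 RPKM in Quad and 19.7, 33.1 and 21.7 RPKM in control libraries. For all 3 genes the lowest Hexa library lay above control 2, for Mal-A1 only just. The most abundant maltase, Mal-A3, was not called, with 114, 105 and 98.6 RPKM in Hexa, 111, 94.8 and 124 RPKM in Quad and 132, 130 and 131 RPKM in control libraries (difference -0.31, adjusted p = 0.0756). Mal-A2, second in abundance, had 36.2, 27.9 and 28.5 RPKM in Hexa, 33.9, 31.3 and 46.6 RPKM in Quad and 28.2, 29.2 and 28.8 RPKM in control libraries, a difference of 0.09. Mal-B1 had 3.07, 2.45 and 2.87 RPKM in Hexa, 2.97, 4.48 and 3.67 RPKM in Quad and 3.70, 4.06 and 3.69 RPKM in control libraries (difference -0.44, adjusted p = 0.0693), so the Mal-B neighbours had differences of opposite sign.

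The alpha-mannosidases were the family that was lower in Hexa embryos: 5 of 6 fell, by 0.47 to 0.91 on the log2 scale, and for all 6 the Hexa range lay below the control range. Over all tested genes 13.1% were called lower and 23.7% had a Hexa range below the control range. LManV had 30.5, 32.0 and 35.7 RPKM in Hexa, 45.0, 48.6 and 54.9 RPKM in Quad and 51.6, 60.7 and 49.7 RPKM in control libraries, a difference of -0.72 (SE 0.12, adjusted p = 0.00394). LManIV had 0.987, 1.17 and 1.09 RPKM in Hexa, 0.883, 1.18 and 1.01 RPKM in Quad and 2.09, 2.19 and 2.07 RPKM in control libraries, a difference of -0.91 (SE 0.17, adjusted p = 0.00535). LManV was low in Hexa alone, whereas LManIV was low in Hexa and in Quad libraries. LManIII had 1.49, 1.86 and 1.63 RPKM in Hexa, 1.83, 1.65 and 2.04 RPKM in Quad and 2.61, 2.77 and 2.63 RPKM in control libraries (adjusted p = 0.0133). LManI had 6.42, 5.55 and 6.15 RPKM in Hexa, 8.43, 9.32 and 10.7 RPKM in Quad and 8.88, 10.6 and 8.13 RPKM in control libraries (adjusted p = 0.0153). LManII had 30.7, 26.5 and 31.5 RPKM in Hexa, 38.5, 39.3 and 42.8 RPKM in Quad and 40.9, 44.1 and 37.8 RPKM in control libraries (adjusted p = 0.0156). In LManI and LManII, as in LManV, the Quad libraries lay close to the controls. The count columns of LManI, LManII, LManIII and LManV hold only a small part of their reads. For LManV they hold 3 to 27 per library, so count tests say little about that gene. On those counts edgeR did not call LManII (adjusted p = 0.115) or LManV (adjusted p = 0.549), and DESeq2 did not call LManV, while LManIV, whose counts match its RPKM, was called by edgeR (adjusted p = 0.00284). LManI and LManIII had too few counts for that test. LManVI, not called, had 14.5, 14.0 and 13.5 RPKM in Hexa, 13.3, 12.5 and 22.4 RPKM in Quad and 17.0, 35.0 and 19.2 RPKM in control libraries (adjusted p = 0.0898). When the fit also held each library's heat shock mean, none of the 5 falls was called (adjusted p from 0.0854 to 0.327, differences from -0.83 to -0.34), whereas all 13 rises were (adjusted p from 2.05e-04 to 0.0208). Over all tested genes this covariate took lower calls from 813 to 80 and higher calls from 1184 to 484. The heat shock mean was highest in the Hexa libraries, so that fit can hardly separate it from genotype.

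**Figure D2:**
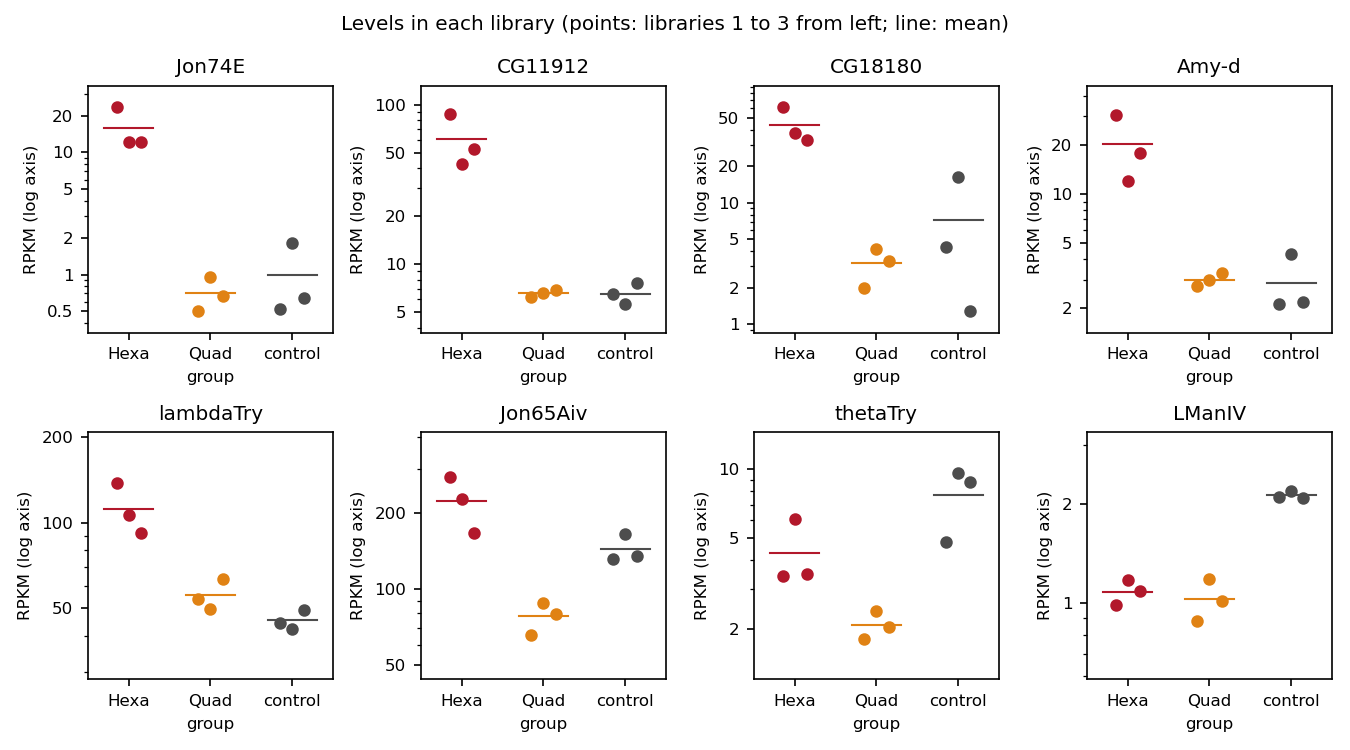
Level in RPKM (log axis, own range in each panel) of 8 genes in each library, with libraries 1 to 3 of a group from left to right and a line at the group mean. The first 5 genes lie highest in the 3 Hexa libraries, thetaTry and Jon65Aiv are lowest in Quad, and LManIV is lower in Hexa and in Quad than in control libraries.

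Of the 18 calls between Hexa and control, 10 held without any 1 of the 9 libraries: Jon74E, CG11912, lambdaTry, Amy-d, Amy-p, Mal-B2, LManI, LManIII, LManIV and LManV. The other 8 did not. CG18180 lost its call without Hexa 1 or control 1 (adjusted p up to 0.0589), Jon25Biii without Hexa 1, Hexa 2 or control 1 (up to 0.0677), and LManII without control 1 (0.0514). Mal-A4 and Mal-A6 lost theirs without Hexa 1, control 1 or control 3 (up to 0.0871 and 0.0772). Jon25Bi was not called without Hexa 1, 2 or 3, Quad 2 or 3, or control 1 or 3 (up to 0.113), and Jon65Aiv and Mal-A1 were not called without Hexa 1 or 2, any 1 Quad library, or control 1 or 3 (up to 0.120 and 0.133). Hexa 1 was the highest Hexa library for 12 of the 13 genes that rose, and it had the lowest heat shock mean of the 3. Without control 2, which was the highest control for 11 of these 13, the number of called enzymes was 23, among them 12 proteases.

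Quad embryos, with 4 of the 6 factors, had less of 3 enzymes than controls and more of none. The 3 calls are 6.98% of the 43 tested enzymes, all lower, beside 4.68% of all tested genes called, 2.16% higher and 2.52% lower. Ranges did not overlap, with Quad lower, for 11 enzymes beside 15.0% of all tested genes, and with Quad higher for 2 beside 15.2%. The median difference was -0.56 for proteases, with 20 of 26 negative, -0.12 for carbohydrases, with 12 of 17 negative, and 0.02 for all tested genes, with 2921 of 6190 negative. With 1 library left out the protease median ran from -0.81 (without control 1) to -0.25 (without control 2). The carbohydrase median ran from -0.20 to -0.024. Called and at least 2-fold lower was 1 enzyme beside 1.2% of all tested genes, and called and at least 2-fold higher was none beside 1.47%. At an unadjusted p under 0.05, 12 of the 43 enzymes differed, beside 1223 of the 6190 tested genes.

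The trypsin thetaTry had 3.39, 6.07 and 3.46 RPKM in Hexa, 1.804, 2.39 and 2.04 RPKM in Quad and 4.80, 9.67 and 8.79 RPKM in control libraries. Its 3 Quad libraries lay below all others, with a difference from control of -1.797 (SE 0.30, adjusted p = 0.00883), and the call held without any 1 library (up to 0.0492). LManIV, whose values stand with its family above, was also lower, with a difference of -0.99 (SE 0.17, adjusted p = 0.0103), a call lost without Quad 1 (0.0533). Jon65Aiv was lower by a log2 difference of -0.89 (SE 0.20, adjusted p = 0.0367), and its Quad libraries lay below all controls, but the call was lost without any 1 of the 3 Quad or 3 control libraries (up to 0.150). The other trypsins were not called in Quad embryos, although 8 of the 9 trypsins had a negative difference and the family median was -1.18. The trypsin epsilonTry, for instance, had 13.0, 17.2 and 7.81 RPKM in Hexa, 3.51, 7.76 and 10.2 RPKM in Quad and 8.25, 29.7 and 18.2 RPKM in control libraries, a difference of -1.32 with an SE of 0.54 (adjusted p = 0.222). Its Quad and control ranges overlapped.

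Among Jonah genes the widest differences from control in Quad embryos ran in opposite directions, and neither was called. Jon99Fii had 28.6, 25.0 and 17.1 RPKM in Hexa, 3.31, 5.95 and 8.91 RPKM in Quad and 9.22, 42.8 and 24.4 RPKM in control libraries, a difference of -1.91 (SE 0.55, adjusted p = 0.0996). Quad lay below control in every library, and without control 1 the adjusted p was 0.0242. Jon65Ai had 8.29, 8.92 and 4.75 RPKM in Hexa, 8.24, 15.2 and 9.85 RPKM in Quad and 1.53, 9.05 and 1.31 RPKM in control libraries, a difference of 1.97 (SE 0.66, adjusted p = 0.145). Control 2 alone among the controls reached the Quad range, and without it the adjusted p was 0.00204. Jon74E, CG11912, Amy-d and Mal-B2, which rose in Hexa embryos, were not called in Quad embryos. Their Quad differences of -0.29, 0.02, 0.13 and 0.09 each changed sign with at least 1 library left out, that of Jon74E to 0.21 without control 2.

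Set directly against Quad embryos, Hexa embryos had more of 16 enzymes and less of 3. The 19 calls are 44.2% of the 43, with 37.2% higher and 6.98% lower, beside 23.1% of all tested genes, 13.5% higher and 9.63% lower. With TMM scaling of RPKM the higher calls were 46.5% of all calls among tested genes, against 58.4% without it, while the enzymes gave 17 higher and 3 lower calls. Called and at least 2-fold higher were 12 enzymes (27.9%) beside 5.74% of all tested genes, and none was at least 2-fold lower beside 1.49%. Ranges did not overlap, with Hexa higher, for 22 enzymes beside 28.6% of all tested genes, and with Hexa lower for 3 beside 22.2%. Of the 26 proteases 25 had a positive difference, beside 3393 of the 6190 tested genes. Of these proteases 10 rose and none fell, with a median of 1.06. The 17 tested carbohydrases gave 6 rises, 3 falls and a median of -0.04, and the median of all tested genes was 0.06.

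The widest differences between Hexa and Quad were those of Jon74E at 4.28 (adjusted p = 7.47e-04), the 3rd highest of all 6190 genes, of CG18180 at 3.76 (adjusted p = 0.0137) and of CG11912 at 3.13 (adjusted p = 1.68e-04). CG18179 differed by 3.24 and missed the threshold (adjusted p = 0.0517), and it passed without control 2 or control 3 (down to 0.00303), whose levels enter through the shared estimate of spread. Amy-d rose by 2.61 (adjusted p = 0.00245) and Amy-p by 2.04 (adjusted p = 0.00547). Jon65Aiv, high in Hexa and low in Quad, rose by 1.503 (adjusted p = 0.00206), lambdaTry by 0.99 (adjusted p = 0.00516), Mal-A6 by 1.26 (adjusted p = 0.00800) and Mal-B2 by 1.17 (adjusted p = 0.00405). These 9 calls, CG18180 included and CG18179 not, held without any 1 library.

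The other 10 calls between Hexa and Quad were less firm. Jon99Fii rose by 2.02 (adjusted p = 0.0344) and thetaTry by 0.97 (adjusted p = 0.0440), both uncalled without Hexa 1 or 2, any 1 Quad library or control 3 (up to 0.0964 and 0.136). The trypsin betaTry had 10.9, 8.72 and 7.07 RPKM in Hexa, 1.43, 3.36 and 2.35 RPKM in Quad and 3.78, 11.3 and 4.02 RPKM in control libraries. It rose by 1.91 against Quad (adjusted p = 0.0203), a call lost without Hexa 1, Hexa 2, Quad 1 or Quad 3 (up to 0.0650). Mal-A8 had 4.65, 4.61 and 3.33 RPKM in Hexa, 1.797, 2.504 and 2.36 RPKM in Quad and 2.83, 4.53 and 3.30 RPKM in control libraries, and rose by 0.88 (adjusted p = 0.0232), again lost without those 4 libraries (up to 0.0771). For both genes every Hexa library lay above every Quad library. The controls lay between or among them, except that control 2 was the highest of all 9 libraries for betaTry. Jon25Bi rose by 2.37 (adjusted p = 0.0396, lost without any 1 Hexa or Quad library or control 3, up to 0.109), Jon25Biii by 0.98 (adjusted p = 0.0427, lost without Hexa 1 or 2, any 1 Quad library or control 3, up to 0.130) and Mal-A4 by 1.01 (adjusted p = 0.0178, lost without Quad 1 or 2, up to 0.0640). LManV fell, with a difference of -0.60 (adjusted p = 0.0130, lost without Hexa 1 or Quad 3, up to 0.0587), LManI with -0.64 (adjusted p = 0.0157, lost without Quad 2 or 3, up to 0.0689) and LManII with -0.45 (adjusted p = 0.0244, lost without Hexa 1 or 2 or any 1 Quad library, up to 0.0926). With the heat shock mean as a covariate none of these 3 falls was called, nor were the rises of Jon99Fii and thetaTry. Over all tested genes that covariate took lower calls from 596 to 30 and higher calls from 835 to 321.

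**Figure D3:**
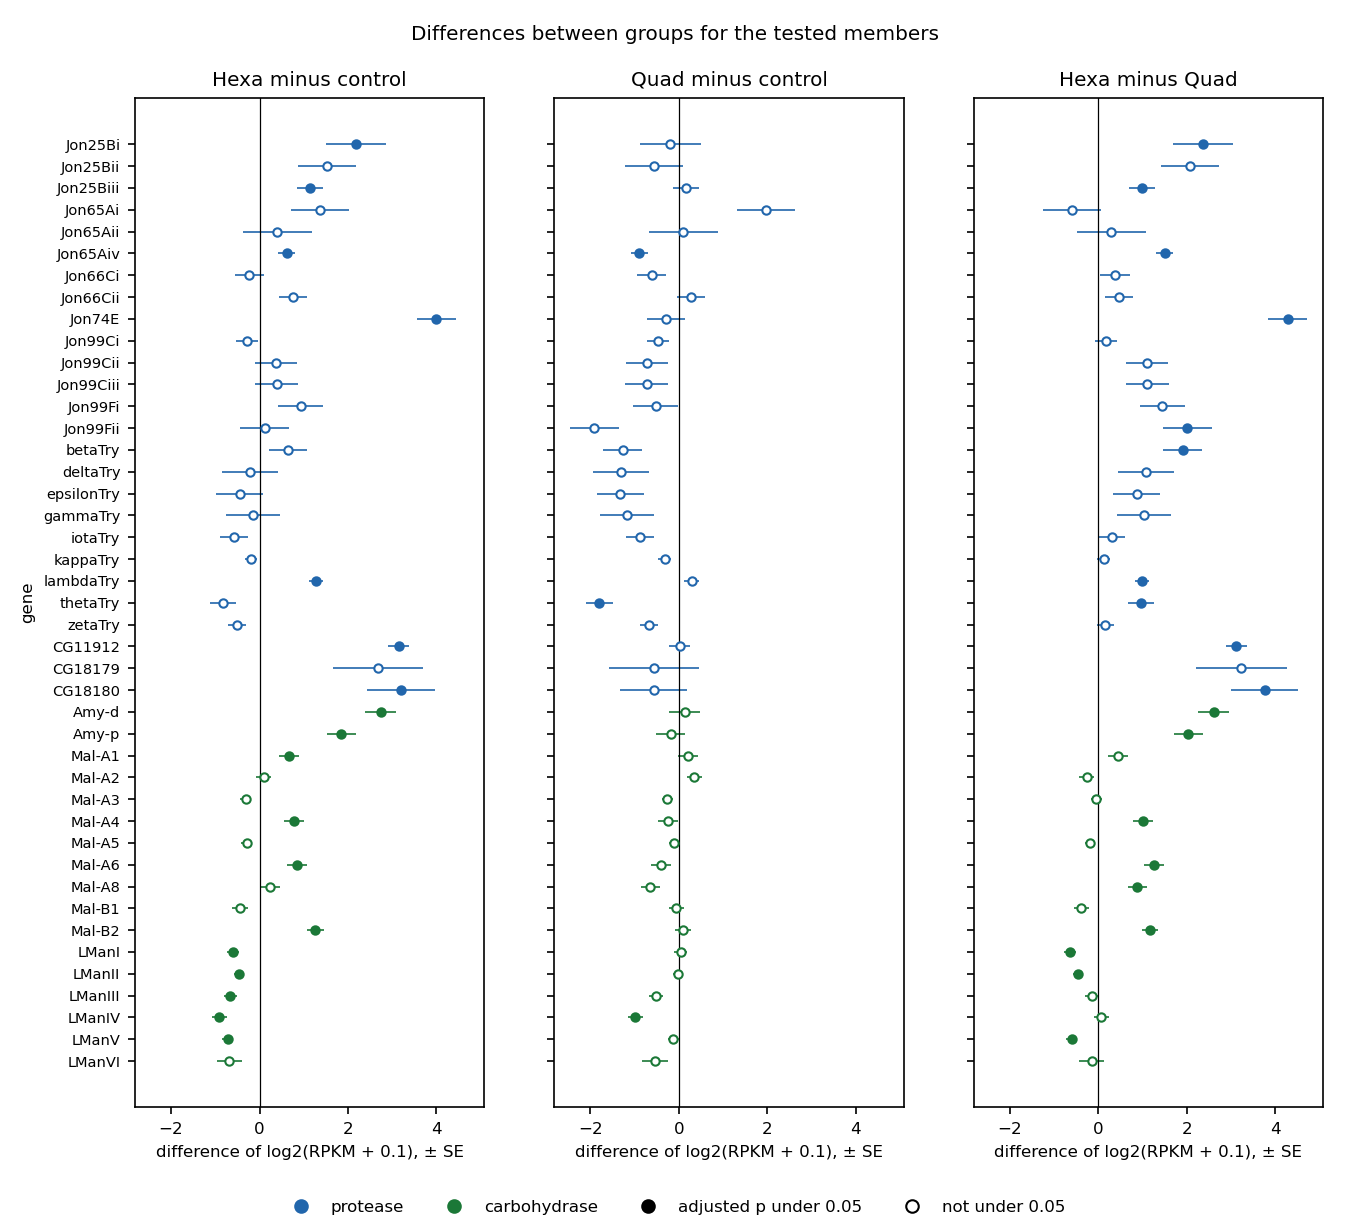
Difference of log2(RPKM + 0.1) for each of the 43 tested genes, Hexa minus control (left), Quad minus control (middle) and Hexa minus Quad (right), with bars of 1 SE either way. Blue points are proteases and green points are carbohydrases, and filled points have an adjusted p under 0.05. Of the filled points 13 lie to the right and 5 to the left in the left panel, 3 lie to the left in the middle panel, and 16 lie to the right and 3 to the left in the right panel.

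Proteases and carbohydrases differed in how widely they spread between libraries of 1 genotype. The highest library of a group was a median of 1.81 times the lowest in Hexa, 2.01 times in Quad and 3.55 times in control embryos for proteases, against 1.25, 1.31 and 1.30 times for carbohydrases and 1.36, 1.21 and 1.34 times for all tested genes. The median protease lay 0.66, 0.73 and 0.13 above the control mean in Hexa 1 to 3, at -1.11, -0.37 and -0.35 in Quad 1 to 3 and at -0.58, 0.92 and 0.04 in controls 1 to 3. Control 2 thus lay above all Hexa libraries on this measure, so the Hexa and control ranges overlapped. The median carbohydrase kept to a narrower band, at -0.20, -0.31 and -0.37 in Hexa, -0.29, -0.13 and 0.03 in Quad and -0.06, 0.17 and -0.09 in control libraries.

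**Figure D4:**
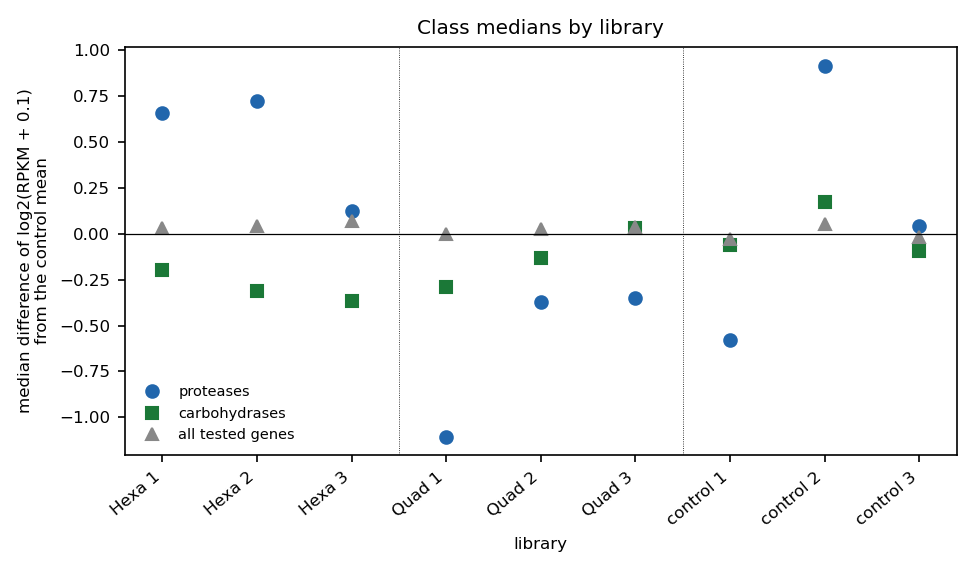
Median difference of log2(RPKM + 0.1) from the control mean over tested proteases (circles), tested carbohydrases (squares) and all tested genes (triangles) in each library. Proteases run from -1.11 in Quad 1 to 0.92 in control 2, while carbohydrases stay between -0.37 and 0.17.

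Summed over the 26 genes, protease RNA was 1239, 1084 and 791 RPKM in Hexa, 347, 481 and 518 RPKM in Quad and 452, 839 and 609 RPKM in control libraries. Every Hexa library was above every Quad library, and Hexa 3 was below control 2. The carbohydrases summed to 362 ± 49.99 RPKM in Hexa, 335 ± 40.1 RPKM in Quad and 366 ± 36.5 RPKM in control embryos (SD, n = 3 each), and these means lay within 1 SD of each other. Proteases made up 70.1% to 76.7% of the summed enzyme RPKM in Hexa libraries, 52.6% to 60.7% in Quad libraries and 56.7% to 67.3% in controls. Jon65Aiv and Jon25Biii together held between 34.9% and 44.1% of the protease sum. The CG-numbered genes summed to 110 ± 39.5 RPKM in Hexa, 10.3 ± 1.62 RPKM in Quad and 15.3 ± 8.22 RPKM in control embryos. Amylases summed to 46.9 ± 18.6, 9.32 ± 1.83 and 10.3 ± 4.34 RPKM in Hexa, Quad and control embryos, and mannosidases to 85.1 ± 4.30, 118 ± 13.7 and 133 ± 19.8 RPKM in the same order (SD, n = 3 each).

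Many of these genes are neighbours in the genome. By the gene order of the BDGP6.54 annotation, with at most 5 other protein-coding genes in between, the 44 genes fall into 14 groups, of which 12 hold more than 1 of them. Neighbours did not always share a call. The 9 trypsins form 1 such group, in which lambdaTry at one end rose in Hexa embryos and its 8 neighbours were not called. In the group of Mal-A1 to Mal-A8, Mal-A1, Mal-A4 and Mal-A6 rose, Mal-A2, Mal-A3, Mal-A5 and Mal-A8 were not called and Mal-A7 was not tested. LManIII to LManVI and the pair of LManI and LManII gave 5 falls and no rise. Jon74E and CG11912, with some of the widest differences, have no other of the 44 genes near them.

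Other gut enzymes gave both rises and falls. A list of 46 other digestive proteases and peptidases held 2 that are Jonah genes under another name and were left out of it. Of the rest 39 had a row and 29 were tested. Against control 11 rose and 4 fell (CG10472, CG17477, CG3108 and CG14820) in Hexa embryos, beside 19.1% higher and 13.1% lower of all tested genes, with a median difference of -0.17. Of these 15 calls 9 held without any 1 library, and with the heat shock mean as a covariate none of the 4 falls was called (adjusted p from 0.0586 to 0.485). The rises of CG17633, CG4408 and CG11865 were not called with it either (adjusted p = 0.0778, 0.0751 and 0.0794). With that covariate lower calls over all tested genes went from 813 to 80 and higher calls from 1184 to 484. In Quad embryos 7 rose and 3 fell (CG31265, CG31266 and CG15255), beside 2.16% higher and 2.52% lower of all tested genes, with a median of -0.25, and 4 of these 10 calls held. CG15254, of the astacin family of metalloproteases, had 18.2, 16.6 and 12.7 RPKM in Hexa, 4.02, 3.25 and 5.29 RPKM in Quad and 2.19, 1.75 and 2.37 RPKM in control libraries, and rose by 2.85 in Hexa embryos (adjusted p = 4.19e-05). The serine protease gene CG17571 averaged 53.0 ± 13.7 RPKM in Hexa, 16.8 ± 2.23 RPKM in Quad and 22.4 ± 3.72 RPKM in control embryos, a rise of 1.22 over control (adjusted p = 0.00287). CG11865, an astacin-type gene, was highest in Quad embryos. It had 0.178, 0.314 and 0.226 RPKM in Hexa, 5.23, 7.74 and 10.3 RPKM in Quad and 0.0256, 0.0253 and 0 RPKM in control libraries. It was called higher in Quad than in control and in Hexa embryos. Only its Quad libraries reached 0.5 RPKM, however, so it was tested through the group where it is high. Its calls therefore add no support to its levels. CG12951 (through Quad) and CG17477 (through control) also passed the filter only with 1 group. All are among the calls counted above.

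Of 12 tested lipases and other gut hydrolases 2 rose (CG6271 and CG6283) and 1 fell (mag) in Hexa against control, a share below the 32.3% of all tested genes called, and none was called in Quad against control, beside 4.68%. In Hexa against Quad 4 rose (CG6271, CG6283, Lip3 and tobi), beside 13.5% of all tested genes. The lipase gene CG6283 had 124, 80.0 and 67.2 RPKM in Hexa, 20.7, 35.7 and 29.6 RPKM in Quad and 13.2, 21.6 and 12.1 RPKM in control libraries, a rise of 2.52 over control (adjusted p = 6.69e-04). Peritrophin-15a, a chitin-binding protein of the peritrophic matrix that lines the midgut lumen, had 166, 118 and 92.9 RPKM in Hexa, 14.4, 24.3 and 12.4 RPKM in Quad and 4.97, 10.2 and 8.33 RPKM in control libraries. Its rise over control was 4.01 (adjusted p = 1.25e-04), and its rise over Quad was 2.90 (adjusted p = 0.00135). The Hexa libraries of both genes lay above all others, and the calls of both held without any 1 library. Of the 4 tested genes of the peritrophic matrix and gut mucins, 1 rose (Peritrophin-15a) and 1 fell (Muc55B) in Hexa against control, beside 19.1% higher and 13.1% lower of all tested genes, but Muc55B was not called when any 1 of the 9 libraries was left out (up to 0.103). Of 5 tested lysozymes, which digest bacterial walls in the gut, LysX rose in Hexa against control, none was called in Quad against control, and LysB, LysD and LysS rose in Hexa against Quad, beside the same shares of all tested genes as for the lipases. Of the calls just listed, those of mag, Lip3, tobi and the 4 lysozymes, and that of CG6271 against Quad, were lost when 1 library was left out (adjusted p up to 0.142). The lysozyme sum was 42.4 to 74.3 RPKM in Hexa, 18.4 to 35.1 RPKM in Quad and 37.9 to 84.1 RPKM in control libraries. The genes named from these lists were picked after their values were seen.

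Of the genes listed as midgut markers, only hkb was called higher in Hexa embryos than in controls. Whole embryos do not show which tissue made the RNA of these markers. The 4 midgut epithelium markers summed to 606 to 650 RPKM in Hexa, 577 to 657 RPKM in Quad and 713 to 745 RPKM in control libraries. Of the 4, mesh and Myo61F fell in Hexa embryos, calls lost without control 1 (0.0526) for mesh and without Hexa 2, control 1 or control 2 for Myo61F (up to 0.0643), and none was called in Quad. Over all tested genes 13.1% fell and 19.1% rose in Hexa, and 4.68% were called in Quad, both against control. The 6 midgut transcription factors summed to 74.0 to 93.8 RPKM in Hexa, 110 to 124 RPKM in Quad and 112 to 115.2 RPKM in control libraries. GATAe, an endodermal GATA factor that activates gut genes, averaged 28.2 ± 4.43 RPKM in Hexa, 43.8 ± 3.68 RPKM in Quad and 42.0 ± 3.19 RPKM in control embryos (SD, n = 3 each), and fell against control, with a difference of -0.58 (adjusted p = 0.0136, and 0.0514 without control 1). The factors srp, dve and Ptx1 also fell in Hexa embryos and hkb rose, beside the same shares of all tested genes. The calls of srp and hkb held without any 1 library, that of dve was lost without Hexa 1, Hexa 2 or control 2 (up to 0.0731) and that of Ptx1 without Hexa 1, Hexa 2, control 1 or control 3 (up to 0.0691). None of the 6 was called in Quad against control, beside 4.68% of all tested genes. With the heat shock mean as a covariate none of these marker calls in Hexa embryos held, while calls over all tested genes went from 1997 to 564. The part of gut size in the enzyme differences was not tested.

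Markers of other tissues and of embryo age moved too. Malpighian tubule markers (Irk3, Uro and ZnT35C) summed to 57.3 to 66.3 RPKM in Hexa, 51.6 to 55.9 RPKM in Quad and 18.4 to 20.4 RPKM in control libraries. Irk3 and ZnT35C rose in Hexa and in Quad against control (Irk3 in Quad not without Quad 1 or control 3, up to 0.0533). Uro was also called higher in Hexa, but it passed the filter only with the Hexa libraries, so that call adds no support. It had 1.29, 1.33 and 1.15 RPKM in Hexa and 0.0167 to 0.771 RPKM in the other libraries. Over all tested genes 19.1% rose in Hexa and 2.16% in Quad against control. Salivary gland markers (3 tested) were not called in any comparison. Of 3 visceral muscle markers bin fell in Hexa, and of 5 fat body genes with a row the only 1 tested, apolpp, fell in Hexa, beside 13.1% of all tested genes. Both calls were lost on leaving out Hexa 1, and also without control 1 or 3 for bin (up to 0.0629) and without Hexa 2 or control 2 for apolpp (up to 0.0628). Osiris genes of the late epidermis, which change with embryo age, summed to 1468 to 2095 RPKM in Hexa, 2311 to 2488 RPKM in Quad and 1549 to 2649 RPKM in control libraries over 6 genes. Control 2, the control with the most enzyme RNA, had the lowest Osiris sum of the controls. No Osiris gene was called, beside 32.3% of all tested genes in Hexa and 4.68% in Quad against control. Of 7 genes listed as tanning enzymes, also age-dependent, 3 rose (y, yellow-f and yellow-f2) and 2 fell (e and laccase2) in Hexa, beside 19.1% higher and 13.1% lower of all tested genes, and y rose in Quad against control, beside 2.16%. The row DAT among the 7 was matched to the planned Dat by a synonym only and may not be a tanning enzyme. It was not called in any comparison. The calls of yellow-f and yellow-f2 held without any 1 library. In Hexa that of y was lost without Hexa 1, control 1 or control 3 (up to 0.0734), that of e without Hexa 1 or 3, Quad 2 or any 1 control (up to 0.0784) and that of laccase2 without control 1 (0.0518), and in Quad that of y was lost without Quad 1 (0.0533). No marker of these lists was at 0 in all libraries. The part of embryo age, heat shock or other tissues in the enzyme differences was not tested.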

How the data were processed

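RNA of 9 libraries was analysed, grouped by the sample titles (3 each of Hexa, Quad and control). The authors deposited 1 table that, per the file headers, holds for each gene a raw read count and a linear and a log2 RPKM. The 9 log2 RPKM columns the authors deposited were the main values, with their floor of -10.86 set to 0 on the linear scale, and the 9 deposited count columns served for depth and alternatives. The 9 linear RPKM columns were not used. Reads were 150 bp, per the labels. The aligner, counter, build, annotation and use of strand are not given in the sources used here. No coordinates are printed for that reason.

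The deposited count columns were checked against RPKM. With 1 fitted length per gene they matched in all 9 libraries, within 0.6 reads or 0.3%, for 30 of the 44 genes (21 of 26 proteases, 9 of 18 carbohydrases). With the annotated length they matched, within 0.5 reads or 0.1%, for 3436 of 4061 genes with 1 annotated transcript. For 13 of the other 14 enzymes most of the reads behind the RPKM are absent from the counts, and for Jon74E the ratio of counts to RPKM varies between libraries.

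limma 3.58.1 in R 4.3.3 (mean-variance trend, robust empirical Bayes) was fitted to log2(RPKM + 0.1) of the 6190 genes that reached 0.5 RPKM in 3 or more libraries, over all 9 libraries with group as the only term, and p-values were adjusted by Benjamini-Hochberg over those genes. RPKM was not rescaled: library medians lay within -0.042 and 0.059 log2 units. Tables were made with Python 3.11.15 and pandas 2.3.3. Alternatives were other pseudocounts and filters, TMM, edgeR 4.0.16 and DESeq2 1.42.0 on counts (at least 10 in at least 3 libraries), 2 groups only, a replicate block, a heat shock covariate and leaving out each library. On data simulated for Hexa against control over 6190 genes the fit recovered 23.9% of genes changed 1.5-fold, 70.1% at 2-fold and 87.9% at 4-fold, and 4.72% of its calls were unchanged genes. The simulation changed far fewer genes than were called here and drew its noise independently for each gene. These shares therefore need not hold for the real data or for the widely spread proteases.

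Genes named with values are those called in any comparison, the 2 most abundant of each family and the 3 widest differences of each class in each comparison; epsilonTry and Jon25Bii were added where a family or neighbour is described. The members and all lists were chosen with earlier results of these data known. Errors of levels are SD over 3 libraries.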

Additional observations from a re-analysis of the deposited data

How the results depend on the processing

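None of the called differences of the 43 tested enzymes changed direction under any alternative run that gave a value. Differences that were not called did so under at least 1 alternative for 15 enzymes in Quad against control, 10 in Hexa against control and 7 in Hexa against Quad. The number of enzymes called in Quad against control (3) was 5 with DESeq2 on counts, and 1 to 3 when each library was left out in turn. In Hexa against control (18) it was 9 with edgeR on counts and 11 to 23 with a library left out, lowest without Hexa 1 and without control 1. In Hexa against Quad (19) it was 12 with edgeR and 10 to 22 with a library left out. The cause of the lower numbers on counts was not tested. With the heat shock mean as a covariate the protease median was 1.47 (Hexa against control) and 2.19 (Hexa against Quad) and the carbohydrase median -0.064 and 0.16; DESeq2 gave a carbohydrase median of -0.15 in Hexa against control, and the cause was not tested. 2 alternatives were chosen after seeing the data. With Hexa 1 as the only Hexa library, assumed to vary like the other groups, 10 enzymes were called in Hexa against Quad. Without control 2, Hexa 2 and Hexa 3 together, 5 were called in Quad against control, and the protease median was 1.05 in Hexa against control.

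Replicate numbers did not pair the samples: same-numbered libraries had correlations of deviations between -0.152 and 0.179, and the labels give no shared day or litter. With the replicate block 16 enzymes were called in Hexa against control, 2 in Quad against control and 19 in Hexa against Quad.

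Over all tested genes, calls in Hexa against control (1997) were 564 with the covariate, 1033 with edgeR, 925 with 2 groups only, 865 with Hexa 1 alone and 962 to 2199 with a library left out. In Hexa against Quad (1431) they were 351, 685, 1537, 640 and 442 to 2004 in the same order, and 882 with the block. In Quad against control (290) they were 132 to 363 with a library left out and 1041 without control 2, Hexa 2 and Hexa 3 together. In the simulated data 23.9% of genes changed 1.5-fold were recovered, and the share missed in the real data was not tested.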
